A study of Homo sapiens with 79 samples.

Results

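RNA recovered with 24 proteins was examined for BCR and ABL1, the genes joined by the Philadelphia translocation, and for 8 genes whose products act with the fusion kinase. The 10 genes were BCR, ABL1, CRKL, GAB2, GRB2, SOS1, CBL, STAT5A, STAT5B and PIM1, taken by symbol from the gene and isoform tables, and each was found once among the 48453 genes of the series. All 10 passed the filter on low values, as did 25442 genes in all. The libraries came from K562, an established human erythroleukemia line that carries the BCR-ABL1 fusion, with no drug or genetic change in any group. fRIP-Seq fixes RNA to nearby proteins with a low dose of formaldehyde, breaks the cells by sonication, pulls down 1 protein with an antibody and sequences the RNA that came along, and the inputs are RNA of K562 lysates without the antibody step. Of the targets, ADAR, HNRNPH1, HNRNPU, HUR, IMP1 and PABP are RNA binding proteins (RBPs), and the other 18 are chromatin-associated proteins (CAPs), with phospho-CBX3 a modified form of CBX3. EZH2 and STAG2 had 2 libraries each, the other 22 proteins had 3 each, and 9 inputs formed 3 sets of 3. Values are FPKM, fragment counts scaled to transcript length and to the mapped total of the library, so levels can be compared between genes. All groups are 1 cell line, so the data describe no normal blood cell and no patient sample.

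As background, the fusion places the kinase of ABL1 behind the oligomerization domain of BCR, and the fusion protein signals without the control that normal ABL1 is under. A phosphorylated tyrosine in the BCR part binds the adaptor GRB2, which brings in the exchange factor SOS1 and so RAS, and the docking protein GAB2, which leads to PI3K. CRKL is a prominent substrate of the fusion kinase, CBL is a ubiquitin ligase and scaffold that it also phosphorylates, and STAT5A and STAT5B are transcription factors that it activates, with the kinase gene PIM1 among their targets. These relations concern proteins, while fRIP measures which RNAs were recovered with each of the 24 proteins.

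The libraries carried the marks of the line. HBG2, a fetal globin gene, was at 178 to 1084 FPKM in the inputs and GATA1, the erythroid transcription factor, at 63.9 to 97.2, while CD3E, MS4A1, CD14, KRT5 and COL1A1 stayed under 1 FPKM in each input and EPCAM reached 45.0. The first library of input set 1 stood apart in the globin genes, with HBG2 at 178 FPKM against 818 or more in the other 8. Depth was estimated from the spacing of low FPKM values, which is the worth of a single fragment, and was 1.99 to 57.2 M (mega) fragments in the fRIPs and 11.8 to 29.9 M in the inputs. The thinnest value of the 10 genes, CBL in 1 ADAR library, rested on about 213 fragments and the median value of BCR on about 11705.

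Where the fusion joins the genes is shown first, because it decides what a BCR or an ABL1 value can mean here. BCR lies at chr22:23521891-23660224 on the plus strand and ABL1 at chr9:133588430-133763062 on the plus strand (GRCh37). In K562 the fusion mRNA runs from BCR exon 14 (chr22:23632526-23632600, 75 bases, of 23 exons) into ABL1 exon 2 (chr9:133729451-133729624, 174 bases, of 11 exons), both of them coding. ABL1 has 2 alternative first exons, 1a and 1b, and neither is part of the fusion mRNA. The junctions below, 15 bases on each side, were put together from the reference genome, with the exon on the left in lower case and the exon on the right in capitals.
BCR exon 14 to BCR exon 15: ttaagcagagttcaaATCTGTACTGCACCC
ABL1 exon 1a to ABL1 exon 2: gctgttatctggaagAAGCCCTTCAGCGGC
ABL1 exon 1b to ABL1 exon 2: tttttgtggaacatgAAGCCCTTCAGCGGC
BCR exon 14 to ABL1 exon 2: ttaagcagagttcaaAAGCCCTTCAGCGGC
The last of these is not in the annotation, so the deposited tables have no entry for the fusion mRNA. A fragment of it counts for BCR or for ABL1 according to the exons it lies in, and reads over the junction itself were not analysed here. The share of either gene's FPKM that came from the fusion cannot be told apart from that of the unfused genes.

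In the inputs, where fRIP plays no part, PIM1 was the highest of the 10 genes, at 271 ± 56.1 FPKM (SD, n = 9), followed by STAT5A at 179 ± 25.2 FPKM (SD, n = 9), CRKL at 131 ± 17.4 FPKM (SD, n = 9) and BCR at 126 ± 31.5 FPKM (SD, n = 9). STAT5B stood at 81.3 ± 13.3 FPKM (SD, n = 9), GRB2 at 68.6 ± 16.2 FPKM (SD, n = 9) and ABL1 at 55.0 ± 6.66 FPKM (SD, n = 9). GAB2 at 41.5 ± 12.5 FPKM (SD, n = 9), SOS1 at 27.8 ± 2.97 FPKM (SD, n = 9) and CBL at 13.3 ± 0.965 FPKM (SD, n = 9) were the lowest. The input ranges of each 2 neighbours in this order overlapped, except that each SOS1 value was above each CBL value. Sets of inputs also differed: BCR was 136 to 193 FPKM in set 1 and 94.2 to 107 in set 3, and GRB2 46.3 to 55.7 in set 1 and 70.9 to 91.0 in set 3. For this reason each fold change against all 9 inputs was also computed against the 1 set that served that fRIP in the deposited comparisons, called the matched set below.

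Each gene was then compared between each fRIP and the inputs, and a pair of gene and fRIP was called where the adjusted p was under 0.05 and the log2 fold change of FPKM + 1 passed 1 in size. Of 240 pairs, 24 were enriched and 8 depleted. Over all genes tested, 6.9% of pairs were enriched and 5.52% depleted. At least 1 of the 10 genes was called in 14 fRIPs and none in the other 10, which were ADAR, CBX3, CHD1, CHD7, CTCF, HNRNPU, LSD1, PCAF, RBBP5 and STAG2. In ADAR fRIP 26.6% of all genes were enriched and 4.31% depleted, in HNRNPU fRIP 13.1% and 2.52%, in CBX3 fRIP 7.45% and 3.65%, in CTCF fRIP 0.424% and 0.79%, and in PCAF fRIP 0.515% and 8.54%. The remaining shares were 0.979% and 3.36% for STAG2, 0.814% and 6.66% for LSD1, 0.99% and 0.896% for CHD7, 0.424% and 1% for CHD1, and 2.28% and 0.731% for RBBP5. With each library centred on its median, 5 of the 10 genes were enriched in LSD1 fRIP and 2 in PCAF fRIP. In that setting 5 were depleted in ADAR, 2 in HNRNPU and 1 in CBX3 fRIP. Against the matched set 1 was enriched in STAG2 fRIP. The shares of all genes in these 2 settings are not given here. In each of the 32 called pairs the fRIP libraries lay all above or all below the inputs. The exact permutation p (two-sided) is then fixed at the smallest the design allows, 0.00909 for 3 libraries against 9 and 0.0364 for 2 against 9. It therefore adds no support to the calls.

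**Figure D1:**
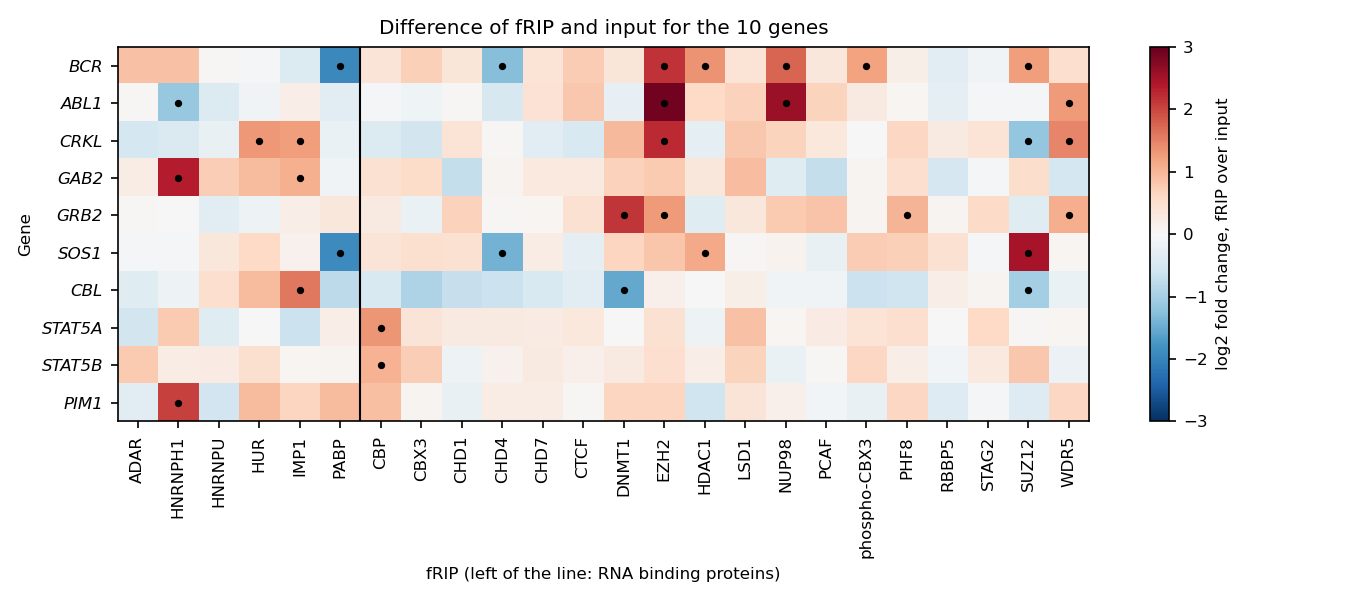
Log2 fold change of FPKM + 1, fRIP over the 9 inputs, for the 10 genes (rows) in the 24 fRIPs (columns, the 6 RNA binding proteins left of the line), with a dot on each of the 32 called pairs. EZH2 and SUZ12 have 4 calls each, all enriched in EZH2 and 2 of them depleted in SUZ12, and the deepest red cells are ABL1 in EZH2 and in NUP98 fRIP.

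By protein, EZH2, the methyltransferase of Polycomb repressive complex 2 (PRC2), had the most members enriched, 4 of 10 (BCR, ABL1, CRKL and GRB2), against 10.5% of all genes. After centring, EZH2 and LSD1 fRIP had 5 of 10 each, and IMP1 and NUP98 fRIP 4 each (shares of all genes not given). WDR5, a subunit of complexes that methylate histone H3 at lysine 4, had 3 of 10 enriched (ABL1, CRKL and GRB2), against 3.9% of all genes. IMP1, an RBP of cytoplasmic mRNA, also had 3 of 10 (CRKL, GAB2 and CBL), against 4.23%. NUP98, a nuclear pore protein, had 2 of 10 (BCR and ABL1), although only 0.263% of all genes were enriched in its fRIP. HNRNPH1, a splicing regulator, had 2 of 10 (GAB2 and PIM1), with 24.5% of all genes enriched. SUZ12, another PRC2 subunit, had 4 of 10 called in all, 2 of them enriched (BCR and SOS1), against 15.3%, HDAC1 2 of 10 (BCR and SOS1) against 8.42%, and CBP, a histone acetyltransferase, 2 of 10 (STAT5A and STAT5B) against 9.08%. Single genes were enriched in DNMT1 fRIP (GRB2, where 9.56% of genes were enriched), HUR fRIP (CRKL, 6.42%), PHF8 fRIP (GRB2, 3.18%) and phospho-CBX3 fRIP (BCR, 2.58%). Depletion was called for BCR and SOS1 in PABP fRIP (14.7% of genes depleted) and in CHD4 fRIP (9.79%), for CRKL and CBL in SUZ12 fRIP (8.6%), for CBL in DNMT1 fRIP (6.88%) and for ABL1 in HNRNPH1 fRIP (7.9%).

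ABL1, which encodes the tyrosine kinase, showed the largest enrichment of any member. It was at 46.7 to 69.3 FPKM in the 9 inputs (median 53.0). In EZH2 fRIP it reached 422 and 401 FPKM (log2 fold change 2.89 ± 0.14 (SE), adjusted p = 9.85e-26), which is 7.42-fold on the scale of FPKM + 1, and it ranked 152 of 25442 genes by fold change. In NUP98 fRIP it stood at 252, 312 and 477 FPKM (log2 fold change 2.59 ± 0.12 (SE), adjusted p = 2.61e-25), where it ranked 6 of all genes. WDR5 fRIP held 124, 125 and 154 FPKM (log2 fold change 1.28 ± 0.12 (SE), adjusted p = 2.25e-13). HNRNPH1 fRIP was the only one in which ABL1 was depleted, with 23.3, 24.2 and 25.4 FPKM (log2 fold change -1.14 ± 0.12 (SE), adjusted p = 1.53e-12). The 4 calls held against the matched inputs and after each library was centred on its median, with log2 fold changes of 2.97, 2.65, 1.34 and -1.27 in the first case.

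BCR, whose normal product is a signalling protein with a guanine nucleotide exchange domain, was enriched in the same 2 fRIPs and in 3 others. It was at 94.2 to 193 FPKM in the 9 inputs (median 112). EZH2 fRIP held 595 and 512 FPKM (log2 fold change 2.16 ± 0.20 (SE), adjusted p = 6.65e-14) and NUP98 fRIP 320.0, 389 and 561 FPKM (log2 fold change 1.74 ± 0.17 (SE), adjusted p = 2.72e-11), where BCR ranked 17 of all genes. HDAC1 fRIP held 322, 327 and 297 FPKM (log2 fold change 1.35 ± 0.17 (SE), adjusted p = 1.65e-09). Values in SUZ12 fRIP were 340.3, 252 and 292 FPKM and in phospho-CBX3 fRIP 347, 207 and 319 FPKM, at log2 fold changes of 1.24 and 1.20 (adjusted p = 6.98e-09 and 1.22e-07). Against the matched set, in which BCR was high, these became 0.91 and 0.87, under the threshold. With matched inputs after centring they were called again (1.07 and 1.13), and the HDAC1 call was lost (0.92). In the other direction, PABP fRIP held 34.5, 31.5 and 27.9 FPKM, all below the lowest input (log2 fold change -1.94 ± 0.17 (SE), adjusted p = 5.54e-15), and CHD4 fRIP 47.5, 58.3 and 45.7 FPKM (log2 fold change -1.27 ± 0.17 (SE), adjusted p = 1.09e-08). The CHD4 value was -0.87 after centring, no longer past the fold threshold. Of the 70 fRIP libraries, 24 were above every input for BCR and 10 below, and for ABL1 24 were above and 15 below.

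**Figure D2:**
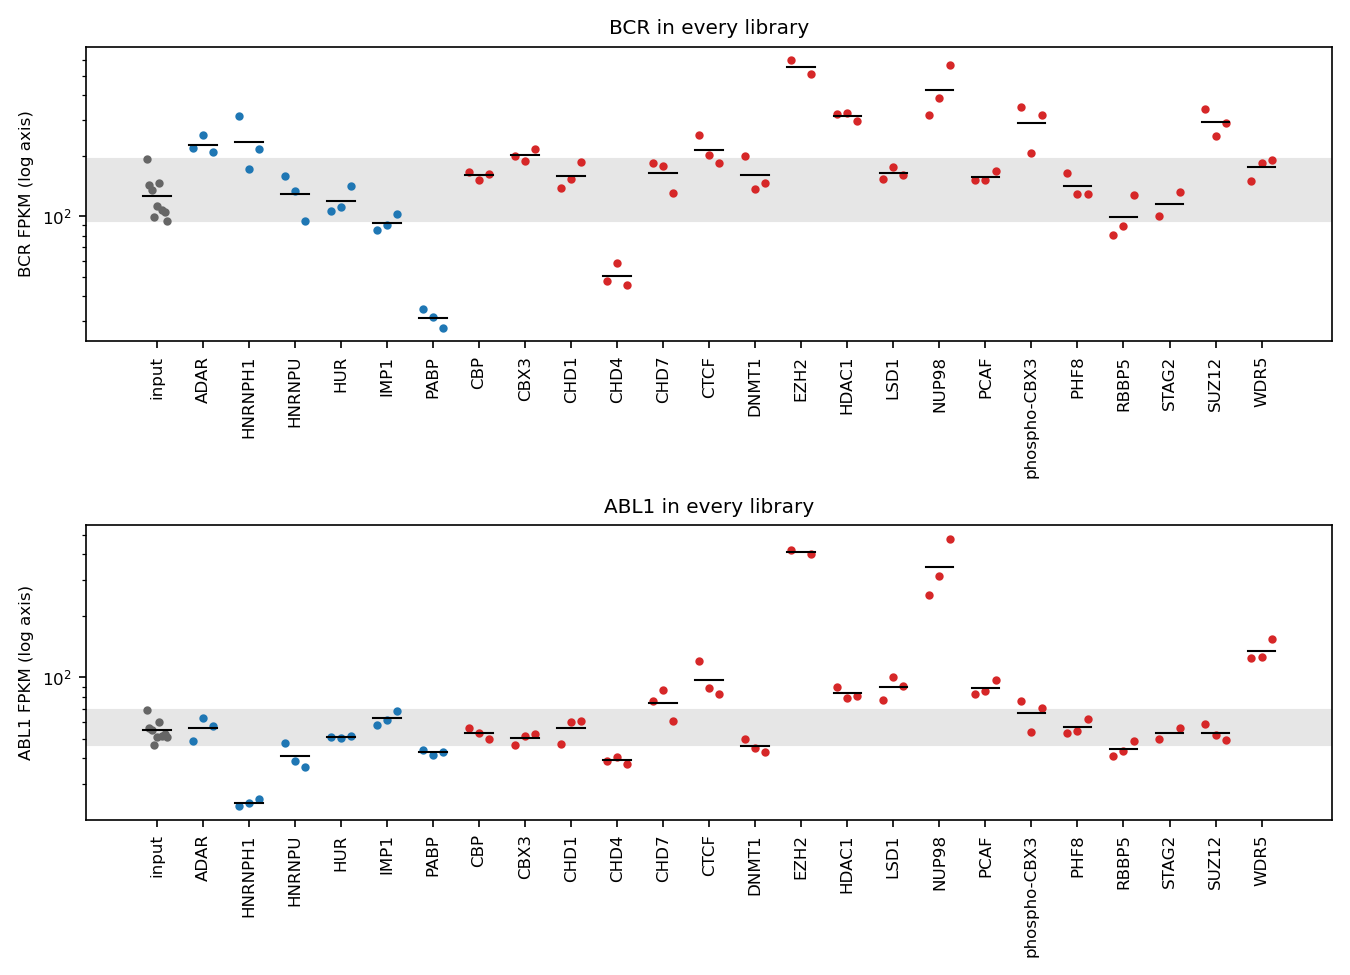
FPKM of BCR and of ABL1 in every library (points; log axis), with a bar at the mean of each group and a grey band over the range of the 9 inputs (grey points; blue, RNA binding proteins; red, chromatin-associated proteins). Both genes lie above the band in EZH2 and NUP98 fRIP, and both lie below it in PABP and CHD4 fRIP.

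Both genes were highest in EZH2 and NUP98 fRIP, and the proportion between them differed between fRIPs. The ratio of BCR to ABL1, log2((BCR + 1)/(ABL1 + 1)), does not depend on how a library was scaled, apart from the added 1 FPKM. It was 0.88 to 1.46 over the inputs, with a mean of 1.16 ± 0.19 (SD, n = 9). By input set the ratio was 1.28 to 1.46 in set 1, 1.07 to 1.25 in set 2 and 0.88 to 1.03 in set 3. It was lowest in PABP fRIP, at -0.45 ± 0.14 (SD, n = 3), where ABL1 exceeded BCR. NUP98 fRIP followed at 0.30 ± 0.06 (SD, n = 3), then CHD4 at 0.35 ± 0.14 (SD, n = 3), WDR5 at 0.37 ± 0.16 (SD, n = 3), EZH2 at 0.42 ± 0.10 (SD, n = 2) and IMP1 at 0.56 ± 0.02 (SD, n = 3), and in these 6 each library lay below each input. The highest ratio was that of HNRNPH1 fRIP, 3.17 ± 0.47 (SD, n = 3), ahead of SUZ12 at 2.43 ± 0.15 (SD, n = 3) and phospho-CBX3 at 2.08 ± 0.14 (SD, n = 3). Gene FPKM is the sum over isoforms. The most abundant isoforms, ENST00000359540 for BCR and ENST00000318560 for ABL1, were both depleted in HNRNPH1 fRIP, at means of 20.1 and 17.8 FPKM. Their input means were 46.8 and 37.6 FPKM, so the high ratio was not seen between these isoforms. In PABP fRIP they were at 16.2 and 37.8 FPKM. By the exact permutation test (two-sided, adjusted over 24 fRIPs), the ratio differed from input in 18 fRIPs, higher in 10 and lower in 8, with an adjusted p of 0.0156 in 14 of them and at most 0.0485 (EZH2). Against the 3 matched inputs alone the ratio was not tested, and the differences in log2 ratio were -1.41 for PABP, -0.54 for EZH2 and 1.81 for HNRNPH1. The test pooled the 9 inputs, although their sets differed. Among the smaller called differences, those against all inputs were 0.41 for CBP, 0.33 for CHD1, 0.45 for HNRNPU, -0.29 for LSD1 and -0.33 for PCAF. Against the matched sets they were 0.61, 0.34, 0.25, -0.49 and -0.32. CTCF, not called, went from -0.03 to -0.23.

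**Figure D3:**
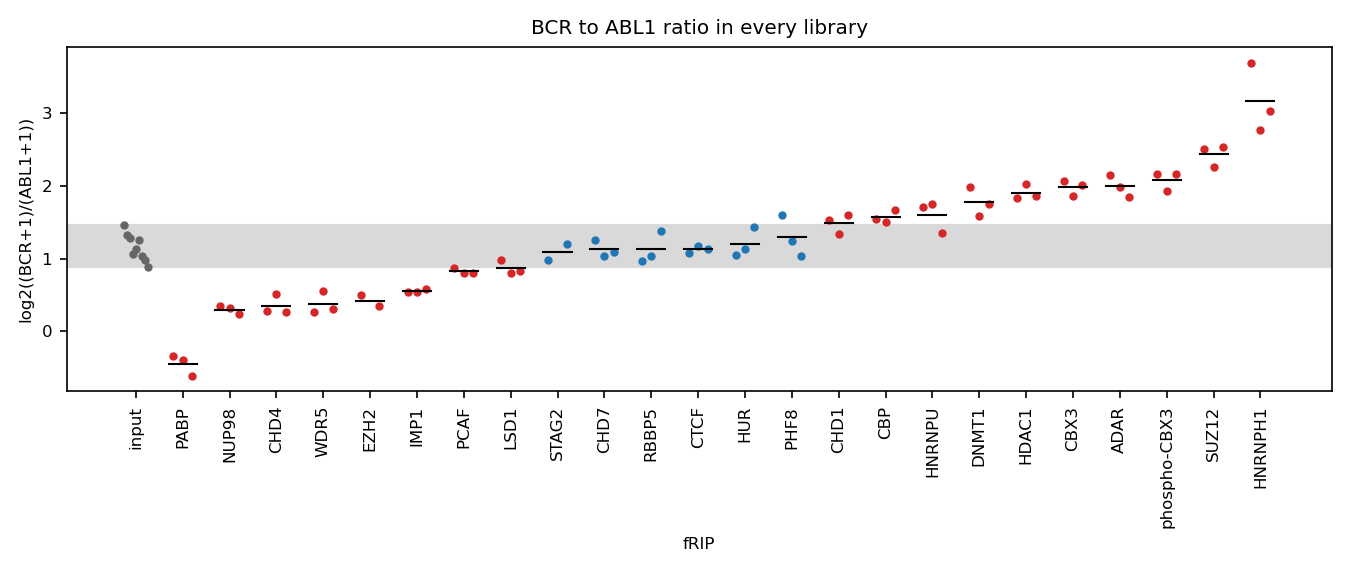
Log2 ratio of BCR to ABL1 (FPKM + 1) in every library, with fRIPs in the order of their means (bars), red where the exact permutation test gave an adjusted p under 0.05 and blue elsewhere; the grey band is the range of the 9 inputs. The means run from -0.45 in PABP fRIP to 3.17 in HNRNPH1 fRIP around 1.16 in input.

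Isoform values add where within the genes the RNA lay, with the limit that they are the authors' estimates, which divide shared fragments over overlapping isoforms. BCR has 16 isoforms in the table. Of these, 6 lie wholly before the end of exon 14 in the genome, on the side the fusion keeps, 1 of them a retained intron transcript, and their FPKM summed to 69.8 ± 23.8 in the inputs (SD, n = 9). Another 6 lie beyond exon 14, wholly or with at most 0.888% of their bases before its end, and summed to 1.66 ± 0.844. The corresponding sums were 262 and 6.18 in EZH2 fRIP and 227 and 3.3 in NUP98 fRIP. The most abundant BCR isoform, ENST00000359540, runs past exon 14, with 71.8% of its bases before that end, and was at 46.8 ± 5.73 FPKM (SD, n = 9) in the inputs and 275 and 252 FPKM in EZH2 fRIP. The longest, ENST00000305877, with 23 exons, was at 0.943 ± 0.236 FPKM (SD, n = 9).

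For ABL1, the isoform that starts at exon 1a, ENST00000318560, made up most of the gene, at 37.6 ± 5.06 FPKM (SD, n = 9), and the isoform from exon 1b, ENST00000372348, was at 16.0 ± 2.39 FPKM (SD, n = 9). The 1a isoform was at 287 and 301 FPKM in EZH2 fRIP (log2 fold change 2.95 ± 0.17 (SE), adjusted p = 5.25e-22) and 208, 259.7 and 402 FPKM in NUP98 fRIP (log2 fold change 2.87 ± 0.14 (SE), adjusted p = 5.39e-23). The 1b isoform was enriched in EZH2 fRIP at 129.8 and 96.6 FPKM (log2 fold change 2.75 ± 0.32 (SE), adjusted p = 4.37e-10), in NUP98 fRIP at 40.5, 49.3 and 70.7 FPKM (log2 fold change 1.66 ± 0.27 (SE), adjusted p = 8.62e-06), and in CTCF and SUZ12 fRIP at log2 fold changes of 1.35 and 1.04. It was depleted in ADAR and IMP1 fRIP, at -2.14 and -1.20, and in PABP fRIP at 0.775, 0.979 and 0.524 FPKM (log2 fold change -3.26 ± 0.27 (SE), adjusted p = 1.59e-15), HNRNPH1 fRIP at 1.18, 1.44 and 0.525 FPKM (log2 fold change -3.06 ± 0.27 (SE), adjusted p = 8.95e-15) and CHD4 fRIP at 1.97, 4.75 and 1.21 FPKM (log2 fold change -2.33 ± 0.27 (SE), adjusted p = 4.04e-10). Its share of the FPKM of the 3 ABL1 isoforms was 23.5 to 31.9% in the inputs, 1.21 to 2.35% in PABP fRIP and 60.3 to 66.7% in SUZ12 fRIP. Fragments of the fusion mRNA carry neither first exon and were assigned to one of these isoforms all the same, so the share is not that of the 2 promoters.

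Among the adaptors, CRKL, an SH2 and SH3 domain protein, was called in 5 fRIPs. It was at 109 to 168 FPKM in the 9 inputs (median 129). EZH2 fRIP held 591 and 649 FPKM (log2 fold change 2.24 ± 0.14 (SE), adjusted p = 2.99e-20), WDR5 fRIP 309, 355 and 424 FPKM (log2 fold change 1.46 ± 0.12 (SE), adjusted p = 6.16e-15), and the RBPs HUR and IMP1 342, 350.5 and 283 FPKM (log2 fold change 1.31 ± 0.12 (SE), adjusted p = 1.63e-13) and 305, 274 and 355 FPKM (log2 fold change 1.25 ± 0.12 (SE), adjusted p = 1.14e-12). SUZ12 fRIP held 59.2, 52.1 and 63.4 FPKM, below every input (log2 fold change -1.15 ± 0.12 (SE), adjusted p = 4.26e-12). The 5 calls held against the matched set and, separately, after centring. With both together HUR stood just short of a log2 fold change of 1 and SUZ12 at -0.85, both under the threshold. HUR binds AU-rich elements, for which the pentamer ATTTA was counted on the sense strand of the most abundant isoform with a reference sequence. CRKL has 3 copies in 5342 bases, where 83.5% of mRNAs within 10% of its length have as many or more, and CRKL was the only member called in HUR fRIP. SOS1, at 0.59 there, has 22 in 8906, as many or more being found in 27.1% of such mRNAs. The counts were 13 for CBL (0.94 in HUR fRIP), 8 for STAT5B (0.47), 6 for GAB2 (0.95), 5 for PIM1 (0.94), 3 for GRB2 (-0.15), 1 for BCR (-0.05), 1 for ABL1 (-0.10) and 0 for STAT5A (0.02), the values in parentheses being log2 fold changes.

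GRB2, the adaptor that links the fusion protein to SOS1, was enriched in 4 fRIPs, all of CAPs. It was at 46.3 to 91.0 FPKM in the 9 inputs (median 70.9). DNMT1 fRIP, for the maintenance DNA methyltransferase, held 319, 277 and 299 FPKM (log2 fold change 2.14 ± 0.15 (SE), adjusted p = 1.15e-18), with the gene ranking 87 of 25442 there. EZH2 fRIP held 179.9 and 146 FPKM, WDR5 fRIP 131, 139 and 162 FPKM and PHF8 fRIP 179.7, 129.7 and 108 FPKM, at log2 fold changes of 1.27, 1.09 and 1.02 (adjusted p = 8.77e-09, 1.24e-08 and 2.01e-07). These 3 fell under the fold threshold against their matched sets, at 0.98, 0.95 and 0.73, while the DNMT1 value was 2.57. PHF8 also lost its call after centring (0.79), without its first library (0.82), and without any 1 library of input set 1 (0.95 to 0.98).

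In DNMT1 fRIP 3 of the GRB2 isoforms were enriched, of which the 2 with the highest values are given here. The most abundant GRB2 isoform in input, ENST00000316804, was at 36.8 ± 14.3 FPKM (SD, n = 9) and was not called in DNMT1 fRIP, at 45.5 ± 9.35 FPKM (SD, n = 3; log2 fold change 0.40). The rise of the gene value there lay mostly in the 2 short isoforms that follow. As FPKM is scaled to transcript length, a fragment assigned to a short isoform adds more to the gene value. ENST00000582582, a coding isoform of 584 bases, was at 9.93 ± 7.13 FPKM (SD, n = 9) in the inputs and 177, 158 and 178 FPKM in DNMT1 fRIP (log2 fold change 4.41 ± 0.60 (SE), adjusted p = 2.04e-08). ENST00000462266, of 601 bases with no coding sequence defined, was at 2.97 ± 1.8 FPKM (SD, n = 9) and 71.4, 58.3 and 61.5 FPKM (log2 fold change 4.14 ± 0.61 (SE), adjusted p = 1.18e-07). For CRKL the gene missed the fold threshold in DNMT1 fRIP (log2 fold change 0.97, adjusted p = 2.11e-09), while its isoform ENST00000411769, annotated as a target of nonsense-mediated decay, was at 0.163 ± 0.173 FPKM (SD, n = 9) in the inputs and 165, 129 and 139 FPKM there (log2 fold change 6.97 ± 0.31 (SE), adjusted p = 1.78e-27), the largest isoform difference of any member. It was also enriched in SUZ12 fRIP, at 25.0, 16.9 and 18.3 FPKM, where the full-length ENST00000354336 was depleted at 34.2, 35.1 and 45.1 FPKM (log2 fold change -1.75 ± 0.13 (SE), adjusted p = 6.31e-18). In DNMT1 fRIP, 18 of 69 member isoforms were enriched, where 13.8% of all isoforms were.

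GAB2, a docking protein for PI3K subunits and SHP2, was enriched in HNRNPH1 and IMP1 fRIP. It was at 13.4 to 52.2 FPKM in the 9 inputs (median 45.9). HNRNPH1 fRIP held 202, 222 and 184 FPKM (log2 fold change 2.35 ± 0.31 (SE), adjusted p = 1.66e-09), most of it in ENST00000340149, which was at 160.1, 197 and 151 FPKM against 22.2 ± 7.79 FPKM (SD, n = 9) in the inputs. IMP1 fRIP held 83.1, 113 and 60.4 FPKM (log2 fold change 1.07, adjusted p = 0.00337), which was 0.76 against the matched set, 0.85 without its second library and 0.89 without the third library of input set 2, in each case under the threshold. That input was the lowest of the 9 for GAB2, and the same was seen in the fRIPs tied to its set. Over CHD1, NUP98, PCAF, RBBP5 and WDR5, libraries numbered 1 held 38.0 to 46.7 FPKM, those numbered 2 27.8 to 35.6 and those numbered 3 10.9 to 16.4, beside 41.0, 29.2 and 13.4 in the inputs of the same number. The 3 ranges did not overlap. Against input set 2 alone, with or without the number as a block, the GAB2 log2 fold changes were -0.11 for CHD1, 0.25 for NUP98, -0.10 for PCAF, 0.09 for RBBP5 and 0.07 for WDR5, where those against all inputs were -0.71, -0.36, -0.70, -0.51 and -0.53.

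SOS1, the exchange factor that loads RAS, was enriched in 2 fRIPs and depleted in 2. It was at 23.8 to 32.3 FPKM in the 9 inputs (median 27.4). SUZ12 fRIP held 144, 116 and 231 FPKM (log2 fold change 2.46 ± 0.23 (SE), adjusted p = 2.29e-14) and HDAC1 fRIP 51.7, 62.1 and 76.1 FPKM (log2 fold change 1.15 ± 0.23 (SE), adjusted p = 2.97e-05). PABP fRIP held 6.56, 7.16 and 6.33 FPKM (log2 fold change -1.90 ± 0.23 (SE), adjusted p = 1.51e-10) and CHD4 fRIP 13.6, 7.16 and 9.61 FPKM (log2 fold change -1.41 ± 0.23 (SE), adjusted p = 7.78e-07). The HDAC1 value was 0.86 after centring, under the threshold, while the other 3 held, and the CHD4 value was -0.95 against matched inputs after centring. In SUZ12 fRIP the isoforms moved in opposite directions. The isoform of 8906 bases, ENST00000402219, fell from 11 ± 1.05 FPKM (SD, n = 9) to 1.97, 2.97 and 2.35 FPKM (log2 fold change -1.81 ± 0.23 (SE), adjusted p = 2.41e-09). ENST00000395038, of 4123 bases, rose from 5.86 ± 0.871 FPKM (SD, n = 9) to 76.7, 52.4 and 112 FPKM (log2 fold change 3.51 ± 0.34 (SE), adjusted p = 2.4e-13), and the retained intron isoform ENST00000472480 from 2.79 ± 1.85 FPKM (SD, n = 9) to 38.2, 37 and 70.2 FPKM (log2 fold change 3.85 ± 0.73 (SE), adjusted p = 1.16e-05). SOS1-IT1, a transcript annotated inside SOS1, and unspliced SOS1 RNA cannot be told apart from exonic reads where they overlap.

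CBL, at 11.6 to 14.8 FPKM in the 9 inputs (median 13.5), was the least abundant member and the one most often below input: 41 of the 70 fRIP libraries lay under every input. DNMT1 fRIP held 4.05, 3.86 and 3.74 FPKM (log2 fold change -1.54 ± 0.10 (SE), adjusted p = 4.51e-19) and SUZ12 fRIP 6.66, 4.92 and 6.77 FPKM (log2 fold change -1.01, adjusted p = 7.28e-13). The SUZ12 value sat on the threshold, at -0.97 against the matched set, -0.88 without the second SUZ12 library and -0.99 without the second library of input set 3. IMP1 fRIP was the only one in which CBL was called enriched, with 44.9, 36.4 and 44.7 FPKM (log2 fold change 1.59 ± 0.10 (SE), adjusted p = 1.86e-19), and this call held against the matched set (1.63) and after centring (2.04). HUR fRIP, at 26.8, 28.8 and 23.9 FPKM (log2 fold change 0.94), and HNRNPU fRIP, at 20.3, 18.9 and 18.1 FPKM (0.50), also lay above every input but did not pass the fold threshold. The table has 1 CBL isoform, ENST00000264033, of 11168 bases.

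STAT5A and STAT5B are neighbouring genes on chromosome 17, at chr17:40439565-40463961 on the plus strand and chr17:40351194-40440651 on the minus strand, whose 5′ ends overlap. Of the 31-base words of the STAT5A isoform ENST00000588868, 20.0% also occur in STAT5B, so some fragments can be assigned to either gene, and strand use in the counting is not given in the sources used here. Both were enriched in CBP fRIP and in no other. STAT5A was at 144 to 213 FPKM in the 9 inputs (median 178) and 485, 455 and 406 FPKM in CBP fRIP (log2 fold change 1.33 ± 0.19 (SE), adjusted p = 5.92e-08). STAT5B was at 50.4 to 96.1 FPKM in the 9 inputs (median 82.9) and 170.4, 160.5 and 169.6 FPKM (log2 fold change 1.05 ± 0.15 (SE), adjusted p = 7.59e-08). The STAT5B value was 0.84 against the matched set and 0.96 without the third library of input set 2, under the threshold, whereas STAT5A held at 1.17. In CBP fRIP 7 STAT5A isoforms were enriched, 4 of them annotated as retained intron transcripts (of all isoforms 13.4% were enriched there, and of all retained intron isoforms 33.3%), and the largest difference was that of 1 of these, ENST00000591556, which went from 4.12 ± 0.704 FPKM (SD, n = 9) to 33.6, 26.5 and 27.4 FPKM (log2 fold change 2.56 ± 0.27 (SE), adjusted p = 6.72e-12).

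The log2 ratio of STAT5A to STAT5B was 0.85 to 1.72 over the inputs. It was -0.20 ± 0.11 (SD, n = 3) in ADAR fRIP, 0.36 ± 0.24 (SD, n = 3) in SUZ12, 0.43 ± 0.35 (SD, n = 3) in IMP1, 0.52 ± 0.29 (SD, n = 3) in HNRNPU and 0.68 ± 0.01 (SD, n = 3) in HUR fRIP, each library below each input (exact permutation test, adjusted p = 0.0436 for the 5, over 24 fRIPs). No fRIP had a higher ratio at that threshold. Taken from the most abundant isoform of each gene, the ratio differed from input in no fRIP. In ADAR fRIP, for the enzyme that deaminates adenosines in double-stranded RNA, 3 of the 5 STAT5B retained intron isoforms rose and the other 2 were not called, and over the 17 such isoforms of all members 4 rose, where 23% of all retained intron isoforms did. The largest change was that of ENST00000468496, from 1.45 ± 0.444 FPKM (SD, n = 9) to 45.0, 22.4 and 38.2 FPKM (log2 fold change 3.85 ± 0.27 (SE), adjusted p = 3.81e-19), while the whole STAT5B gene did not pass the fold threshold (0.78). The call on the ratio sits at the smallest p the design allows, and was lost in all 5 fRIPs when 1 library of any of these 5 proteins was left out, or any input but the third of set 2, and leaving out a library also raises the smallest p.

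PIM1, the serine/threonine kinase gene downstream of STAT5, was enriched in HNRNPH1 fRIP, with 1061, 1171 and 1088 FPKM against 202 to 362 FPKM in the 9 inputs (median 259) (log2 fold change 2.05 ± 0.13 (SE), adjusted p = 1.65e-20). This is the highest level of any member in any library. It ranked 1354 of all genes there, in a fRIP where all genes stood at 0.34 in the median, and after centring it was 1.32. PABP fRIP held 547, 516 and 493 FPKM, at a log2 fold change of 0.96 that did not pass the fold threshold. In PABP fRIP, for the protein that coats poly(A) tails, BCR and SOS1 were depleted, CBL was at -0.77, and the other 7 genes lay between -0.34 (ABL1) and 0.96 (PIM1).

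**Figure D4:**
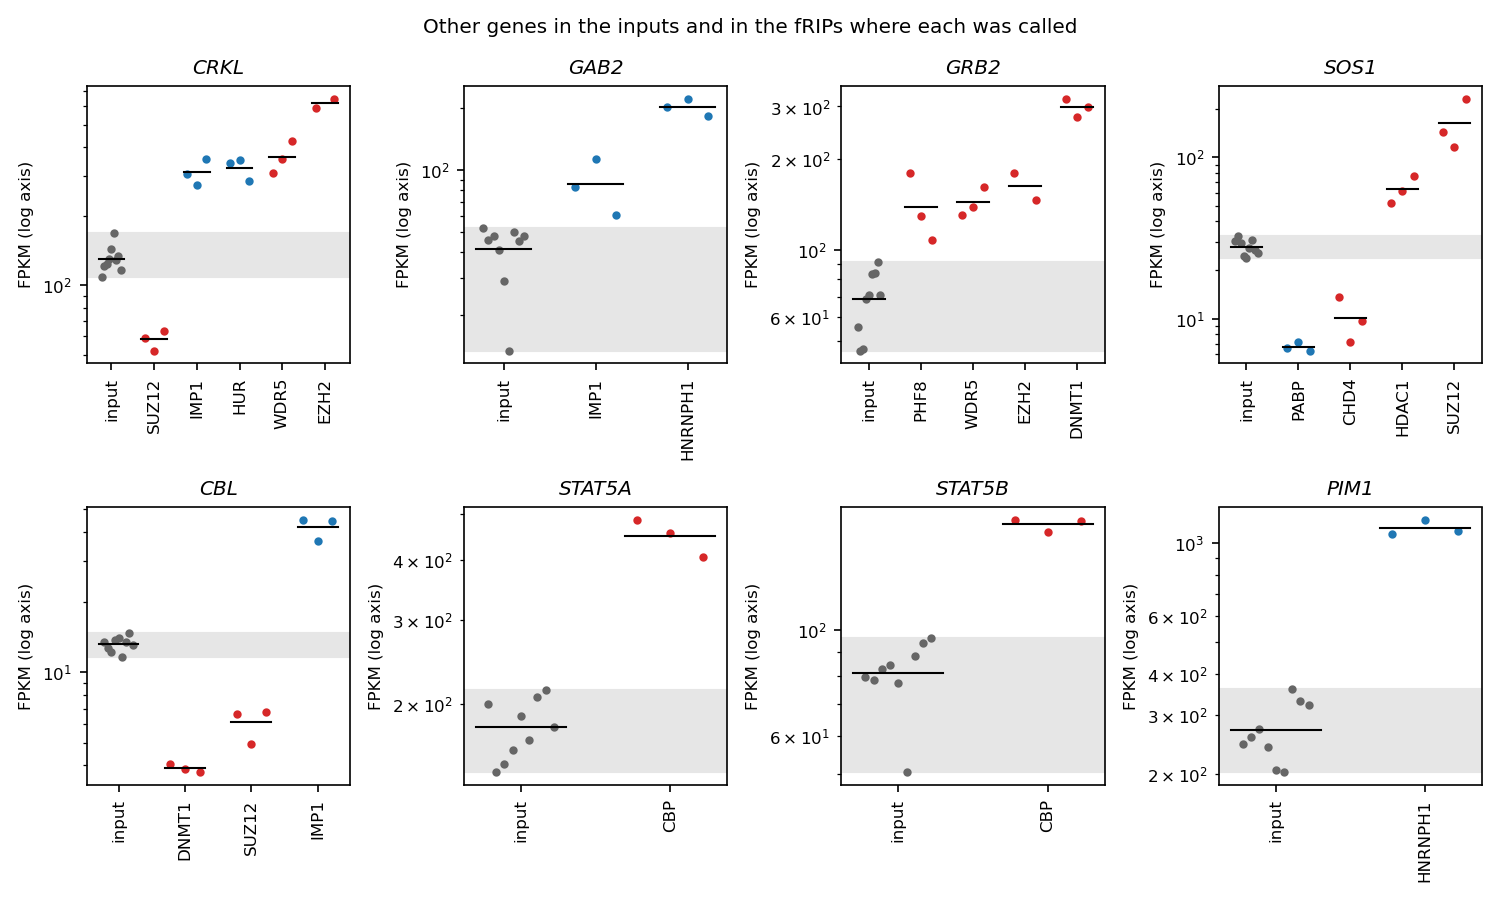
FPKM (log axis) of the 8 genes other than BCR and ABL1 in the 9 inputs and in each fRIP where the gene was called, with 1 point a library, a bar at the mean and a grey band over the input range (blue, RNA binding proteins; red, chromatin-associated proteins). In every panel the called fRIP libraries lie outside the band.

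Over all isoforms of the 10 genes, 69 of 72 passed the filter, and of 1656 isoform and fRIP pairs 216 were enriched and 145 depleted, where 7.29% and 5.47% of all isoform pairs were. For 146 of the 216 and 116 of the 145 the gene itself was not called in that fRIP, and for 2 and 5 it was called the other way. Among the 69, 17 are annotated as retained intron transcripts, which keep an intron and are largely nuclear RNAs in general. In SUZ12 fRIP 11 of the 17 were enriched and none depleted, against 39.8% enriched among all 19390 retained intron isoforms tested. CBX3, a reader of methylated histone H3 lysine 9, had 10 of 17 enriched (all such isoforms, 32.7%), CBP 9 (33.3%), PHF8, a histone demethylase, 7 (19.1%), HNRNPH1 6 (39.9%) and HNRNPU 5 (13.7%). In the opposite direction, 12 of 17 were depleted in PABP fRIP (all such isoforms, 34.3%) and 12 in CHD4 fRIP (27%), followed by IMP1 with 9 (19.8%) and EZH2 with 5 (12.8%). After centring these 4 counts were 9, 7, 4 and 2. The share over all such isoforms was not computed with centring, so these counts have no background beside them. The median log2 fold change over the 17 was 1.50 in SUZ12 and -1.82 in PABP fRIP, and over all such isoforms 0.77 and -0.67. The 17 come from 6 genes and share fragments with one another, so the shares were not tested against each other.

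**Figure D5:**
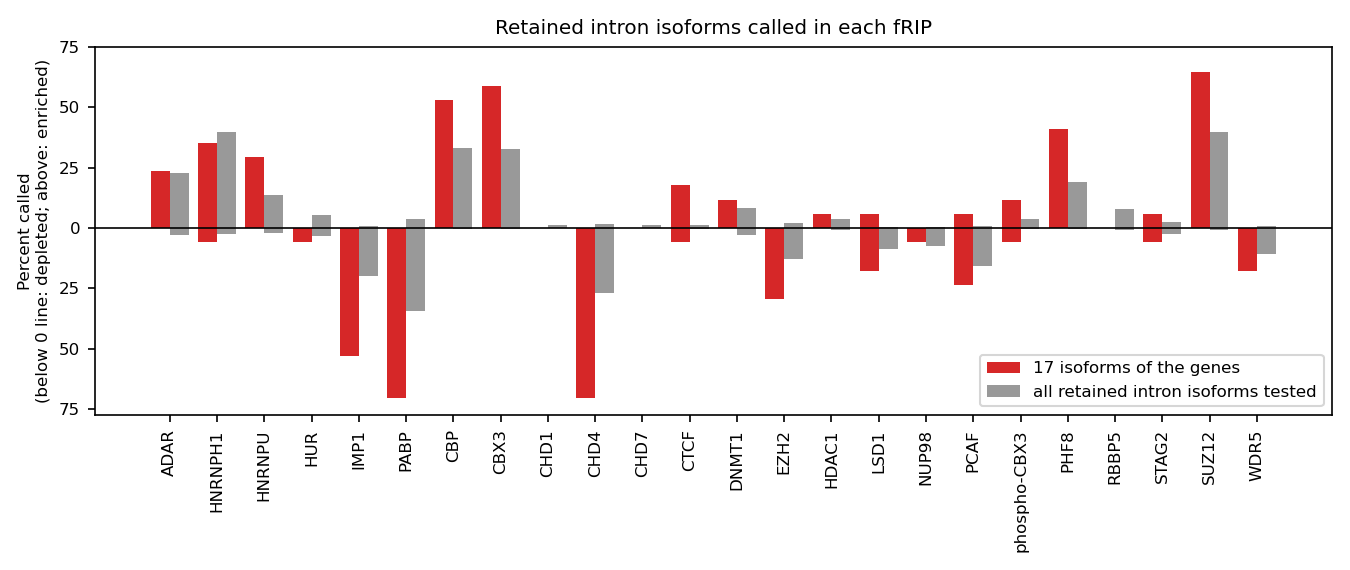
Percent of retained intron isoforms called in each fRIP, enriched above the 0 line and depleted below it, for the 17 isoforms of the 10 genes (red) and for all 19390 tested (grey), with the 6 RNA binding proteins on the left. The tallest red bars are SUZ12 (11 of 17) above the line and PABP and CHD4 (12 of 17 each) below it.

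Spliced and intron-keeping BCR isoforms were called in opposite directions in 2 fRIPs. ENST00000487968, a BCR isoform that keeps introns near exon 14, was at 4.17 ± 1.41 FPKM (SD, n = 9) in the inputs. It rose to 29.0, 23.0 and 25.0 FPKM in HNRNPH1 fRIP (log2 fold change 2.41 ± 0.19 (SE), adjusted p = 7.4e-17), where the spliced ENST00000359540 was depleted at 21.5, 18.4 and 20.5 FPKM (log2 fold change -1.17 ± 0.13 (SE), adjusted p = 2.17e-11). In EZH2 fRIP the order was turned, with the retained intron isoform at 1.16 and 0.793 FPKM (log2 fold change -1.35 ± 0.22 (SE), adjusted p = 2.33e-06) and the spliced one enriched as given above. The gene value of BCR in HNRNPH1 fRIP, 0.87, was not called.

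Pairs of proteins from 1 complex or 1 protein family were compared directly, in a fit of the same kind with adjustment over all genes. SUZ12 and EZH2 are both PRC2 subunits. Between their fRIPs 6 of the 10 genes differed: 1 was higher in SUZ12 fRIP (of all genes, 18.5%) and 5 lower (13.1%). CRKL gave the largest difference, with means of 58.2 and 619.8 FPKM (SUZ12 minus EZH2, -3.39 ± 0.17 (SE), adjusted p = 1.63e-25), ahead of ABL1 (-2.93 ± 0.16 (SE), adjusted p = 2.16e-23). SOS1 was the gene that was higher with SUZ12 (1.63 ± 0.31 (SE), adjusted p = 1.18e-05). The fRIPs belong to different input sets, 1 for SUZ12 and 3 for EZH2. With each taken relative to its own set, a comparison added after seeing the data, GRB2 went from -1.62 to -0.91 and PIM1 from -1.03 to -0.65, both under the fold threshold, while CRKL (-3.30), ABL1 (-3.14), SOS1 (1.49) and CBL (-1.06) stayed past it. BCR was enriched in both, and its direct difference of -0.91 did not pass the fold threshold, whereas that relative to the matched sets did (-1.52). WDR5 and RBBP5 share complexes of the COMPASS family. ABL1, CRKL and GRB2 were higher in WDR5 fRIP, 3 of 10 where 5.17% of all genes were, with ABL1 at means of 135 and 44.3 FPKM (WDR5 minus RBBP5, 1.58 ± 0.15 (SE), adjusted p = 1.62e-13), and none was lower (12.9%). Between phospho-CBX3 and CBX3 none of the 10 passed the threshold (0.33% of all genes higher and 2.4% lower), and the differences ran from -0.47 (GAB2) to 0.57 (CRKL).

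A list of 60 other genes of the pathway set the members in context. The filter kept 57 of them (PIK3R2 as 2 entries, so 58 in all), and of 1392 pairs with a fRIP 118 were enriched (8.48%) and 23 depleted (1.65%), beside 6.9% and 5.52% over all genes. After centring the split was 165 and 71. EZH2 fRIP had 21 of the 58 enriched (all genes, 10.5%), SUZ12 fRIP 13 (all genes, 15.3%) and DNMT1 fRIP 12 (all genes, 9.56%). WDR5 and CBP fRIP had 10 each (all genes, 3.9% and 9.08%). IMP1, PABP and HNRNPH1 fRIP had 9 each (4.23%, 11.1% and 24.5%), PHF8 and ADAR fRIP 5 each (3.18% and 26.6%) and NUP98 fRIP 2 (0.263%). Counts by role were 16 enriched and 2 depleted of 288 pairs for adaptors and docking proteins, 15 and 2 of 144 for ABL2 and Src family kinases, 21 and 12 of 240 for RAS to ERK, 19 and 3 of 240 for PI3K to AKT, 18 and 4 of 216 for STAT5 targets and survival genes, and 29 and 0 of 264 for negative regulators and phosphatases. The named pairs are the largest called difference in each direction for each role. Among kinases, FES was at 17.4 and 21.3 FPKM in EZH2 fRIP and 1.15 to 3.06 FPKM in the inputs (log2 fold change 2.77 ± 0.27 (SE), adjusted p = 4.71e-13), and LYN, a Src family kinase, at 18.8, 21.3 and 20.5 FPKM in HNRNPH1 fRIP and 54.7 to 72.8 FPKM in the inputs (log2 fold change -1.60 ± 0.11 (SE), adjusted p = 8.05e-20). SOS2, the paralog of SOS1, was at 58.0, 65.4 and 72.6 FPKM in SUZ12 fRIP and 10.8 to 21.3 FPKM in the inputs (log2 fold change 1.90 ± 0.16 (SE), adjusted p = 2.2e-16), the fRIP in which SOS1 also rose, and DOK1, a docking protein, at 3.34, 5.79 and 5.64 FPKM in HUR fRIP and 8.96 to 14.6 FPKM in the inputs (log2 fold change -1.17 ± 0.16 (SE), adjusted p = 2.36e-08).

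NRAS gave both extremes of the RAS to ERK group. It was at 187, 144 and 183 FPKM in IMP1 fRIP (log2 fold change 1.78 ± 0.14 (SE), adjusted p = 3.64e-16) and at 8.79, 11.1 and 14 FPKM in SUZ12 fRIP (log2 fold change -2.04 ± 0.14 (SE), adjusted p = 1.92e-19), with 34.1 to 59.4 FPKM in the inputs. AKT2, a kinase downstream of PI3K, was at 265, 242 and 288 FPKM in HNRNPH1 fRIP and 61.9 to 79.1 FPKM in the inputs (log2 fold change 1.88 ± 0.10 (SE), adjusted p = 1.19e-23), and PIK3R1, a regulatory PI3K subunit, at 2.59, 2.1 and 2.43 FPKM in PABP fRIP and 5.95 to 11.5 FPKM in the inputs (log2 fold change -1.30 ± 0.18 (SE), adjusted p = 5.07e-09), which did not pass the fold threshold after centring (-0.81). Among STAT5 targets and survival genes, PIM3, a relative of PIM1, was at 65.9 and 84.6 FPKM in EZH2 fRIP and 12.2 to 18 FPKM in the inputs (log2 fold change 2.28 ± 0.18 (SE), adjusted p = 1.38e-16), and MYC at 30.0, 19.0 and 20.7 FPKM in HNRNPH1 fRIP and 53.3 to 81.5 FPKM in the inputs (log2 fold change -1.50 ± 0.18 (SE), adjusted p = 2.33e-10). SOCS3, an inhibitor of JAK kinases, was at 37.9 and 82.2 FPKM in EZH2 fRIP and 7.63 to 14.9 FPKM in the inputs (log2 fold change 2.44 ± 0.31 (SE), adjusted p = 1.04e-09), with a wide gap between the libraries.

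Likeness to BCR and ABL1 was described by Pearson's r of log2(FPKM + 1) over the 24 fRIP means, which share libraries and depth with one another and carry no test here. The 5 genes most like BCR were SOGA1 (0.91), GOLGA3 (0.88), ZKSCAN1 (0.87), SPEN (0.86) and AC073046.25 (0.86). Those most like ABL1 were TGFBRAP1 (0.84), N4BP1 (0.83), ZBED4 (0.82), POGK (0.82) and ZNF496 (0.82). ABL1 itself correlated with BCR at 0.60 and ranked 696 of 25441 genes, while SOS1 was the member most like BCR (0.68, rank 278). From the side of ABL1, BCR ranked 391, CRKL 636 (0.54) and GRB2 1465 (0.40). The order of these members depended on centring. With each library centred, ABL1 ranked 167 with BCR (0.70), ahead of SOS1 at 290 (0.67), and with ABL1 CRKL ranked 1085 (0.71), ahead of BCR at 1134 (0.70). Without centring, for the others, ranks with BCR were 6893 for STAT5B, 11201 for GAB2, 13014 for GRB2, 14498 for STAT5A, 14510 for CRKL, 18248 for CBL and 19948 for PIM1, and with ABL1 4249 for CBL, 4439 for SOS1, 7883 for STAT5A, 11026 for PIM1, 12287 for STAT5B and 17157 for GAB2. Of the 31-base words of the BCR isoform ENST00000359540, 12.5% occur in other genes. Of the 8 BCR pseudogenes in the table, only BCRP8 exceeded 1.82 FPKM in any library, reaching 49.2, with 1.25 to 4.37 in the inputs.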

How the data were processed

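RNA sequencing of 70 fRIP libraries and 9 inputs of K562 cells was re-analysed. The authors removed ribosomal RNA, used TopHat for alignment on hg19 and the Cufflinks tools for GENCODE v18 transcripts (per the submitters' processing notes, CASAVA 1.4, TopHat, Cuffdiff and Cuffnorm), and the deposited gene and isoform tables hold FPKM per library. Columns of per-sample values that were not used numbered 0. The deposited table of comparisons holds the authors' fold changes, test statistics, p-values and q-values, which were not used. Its mean FPKM of input, set beside the 3 input sets, showed which set served which fRIP (set 1 for 13 proteins, set 2 for 5 and set 3 for 6, the nearest set being closer than the next by 1.41 to 8.81 times).

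FPKM are not counts, so the test was 1 limma fit (3.58.1, R 4.3.3) on log2(FPKM + 1) with an intensity trend, on the 79 libraries together, fitting 24 protein means and an input mean. Genes at 1 FPKM or more in at least 2 libraries were kept (25442 of 48453), and Benjamini-Hochberg adjustment was made over these genes, separately for each fRIP. A fold change on this scale understates the change of low genes. Replicates are separate experiments by the study's methods. Exact permutation tests, matching to GENCODE v44 on GRCh37 (46055 genes and 172143 of 185661 isoforms by identifier), sequences and figures used Python 3.11.15 with scipy 1.17.1 and pandas 2.3.3. The limma fit was tested on simulated data.

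Replicate numbers were checked against the inputs of the matched set by the correlation of deviations from group means. For CHD1, NUP98, PCAF and WDR5, all of set 2, each of 3 pairs was over 0.1 (0.129 to 0.599), and the numbers were taken to pair libraries there, from the data alone. The blocked fit within set 2 also held RBBP5, whose lowest pair was 0.0877. No other protein had every pair over 0.1. The second STAG2 library has no number that matches its label and was left out of blocked fits.

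The 10 genes, the 60 pathway genes, the markers and the pairs of related proteins were chosen with earlier results of these data known. Named were all 10 genes, their most abundant isoforms and isoforms with a call, the extreme called pair in each direction per pathway role, and the 5 genes most like BCR and ABL1. Isoforms with a call numbered too many to name one by one, and those printed were chosen after their values were seen. Alternatives covered pseudocounts, filters, centring, single and matched input sets, a replicate block, 1 fit per protein, no trend and each library left out. Protein sequences and reads over the fusion junction were not analysed here. A marker gene is not reported here.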

Additional observations from a re-analysis of the deposited data

Results flagged for a closer look

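Among the 9 inputs, STAT5B had 1 sample far from the others, the third library of input set 2 at 50.4 FPKM, where Dixon's test flags about 1 group in 20 by chance and 10 genes were examined. The fRIP libraries with that number in the same set were also low, at 51.9 to 55.7 FPKM against 78.5 to 100.3 for number 2. Between SUZ12 and EZH2 fRIP the test of the difference itself was passed by ABL1 (SUZ12 minus EZH2, -2.93), CRKL (-3.39), CBL (-1.16), SOS1 (1.63), PIM1 (-1.03) and GRB2 (-1.62), all log2 differences. Relative to their matched input sets, PIM1 (-0.65) and GRB2 (-0.91) did not pass the fold threshold. Between WDR5 and RBBP5 fRIP it was passed by ABL1 (WDR5 minus RBBP5, 1.58), CRKL (1.18) and GRB2 (1.02).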

How the results depend on the processing

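The 24 enriched and 8 depleted pairs were 24 and 8 with a replicate block, a pseudocount of 0.5 FPKM, no filter, a filter on 40 libraries, no trend or 1 fit per protein, and 23 to 26 and 7 to 9 when 1 library was left out. Centring each library gave 35 enriched and 16 depleted pairs, as it shifted the median of all genes by over 0.1 in 17 fRIPs. Input set 1 alone gave 26 and 9, set 2 alone 35 and 7, and set 3 alone 23 and 8. Matched inputs gave 19 and 7, and together with centring, added after seeing the data, 36 and 9. Among the 32 called pairs none changed sign, and 18 kept their call under each alternative other than leaving out a library. For the 5 proteins of input set 2, the block left 4 enriched pairs, as did the same libraries without it (chosen after seeing the data). Depleted isoform pairs numbered 82 of 255 called with matched, centred inputs against 145 of 361, and a pseudocount of 0.1 FPKM turned the split of 216 and 145 into 174 and 200. The pathway count of 141 became 236 after centring. The BCR to ABL1 ratio differed in 16 to 18 fRIPs when 1 library was left out. That of STAT5A to STAT5B differed in 5, in 0 to 7 when 1 library was left out, and in 0 when taken from the most abundant isoform of each gene. Of the 9 called differences between related proteins, 7 held relative to matched inputs (GRB2 and PIM1 between SUZ12 and EZH2 did not) and 9 with centring, both added after seeing the data. The cause was not tested. The ratios were not tested against matched inputs alone, where the exact test of 3 against 3 libraries cannot go below 0.1 and no other test was run.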
